A study of Mus musculus with 6 samples.

Results

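The genes described here carry glucose into the cell, break it down to pyruvate and lactate, divert it through the pentose phosphate pathway, or send pyruvate into the mitochondrion. They were taken by gene symbol, with enolases left out, and 35 of the 54433 genes of the deposited table were members. Where a symbol had 2 rows, as Aldoa did, the row with more counts was used. All 35 members passed the filter on low counts and were among the 14889 genes tested.

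RNA was sequenced from MC3T3-E1, a mouse osteoblast-like line widely used as a model of bone-forming cells, after selection for poly(A). The FR group was 3 libraries of cells described as resistant to 30 ppm fluoride and exposed to a gradient of 30 ppm fluoride. Per the labels' protocols, these cells came from the same line by continuous exposure to a 10 ppm gradient until they grew at a normal rate. The WT group was 3 libraries of wild-type control cells. The growth protocol, Dulbecco's modified Eagle medium with serum and antibiotics, is the same for both. Both groups are the same line, and resistance and fluoride exposure go together in FR, so they cannot be told apart. The series title speaks of osteoblasts of fluoride-tolerant mice, whereas the sample labels describe this line. The protocol mentions several clones without saying how many make up FR, and nothing states that libraries came from separate cultures, so the p-values here reflect only how much these libraries vary.

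Cells take up glucose through GLUT transporters, and hexokinase traps it as a phosphate. Phosphofructokinase commits it to glycolysis, whose later steps yield ATP, NADH and pyruvate. Lactate dehydrogenase turns pyruvate to lactate, whereas the pyruvate dehydrogenase complex turns it into acetyl-CoA and is switched off by the PDK kinases. The pentose phosphate pathway makes NADPH and ribose phosphate from glucose 6-phosphate. Osteoblasts are known for a high rate of aerobic glycolysis.

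Total expected counts ranged between 19246119 and 25185697 in FR and between 25700497 and 27140662 in WT, at which 3 counts in a library are worth 0.110 to 0.156 CPM (CPM being the count scaled to library size with TMM factors; counting error only). The members together took 1.13% to 1.15% of counts in FR and 1.17% to 1.2% in WT. The line's label was checked against 9 osteoblast markers. Their summed level was 4848 to 4878 CPM in FR and 17283 to 17600 CPM in WT. This sum was set by a few abundant genes, and the markers differed unequally. Col1a2 averaged 3104 CPM in FR and 9282 CPM in WT, and Col1a1 635 CPM in FR and 5055 CPM in WT. Sparc averaged 685 CPM in FR and 1655 CPM in WT, and Spp1 383 CPM in FR and 1392 CPM in WT. Runx2 averaged 57.2 CPM in FR and 69.8 CPM in WT. Sp7, Alpl and Bglap were near 0 in both groups, and Ibsp had no count in any library. Summed markers of other cell types were low. The 7 markers of macrophages and osteoclasts held 13.7 to 17.1 CPM in FR and 18.1 to 20.2 CPM in WT. Within them Csf1r averaged 7.13 CPM in FR and 0.596 CPM in WT, and Cd68 2.26 CPM in FR and 0.467 CPM in WT. Ctsk averaged 2.87 CPM in FR and 7.94 CPM in WT, and Mmp9 2.57 CPM in FR and 10.3 CPM in WT. Ptprc averaged 0.174 CPM in FR and 0.0388 CPM in WT, and Acp5 and Adgre1 had at most 2 counts in a library. The 5 skeletal muscle markers held 6.38 to 7.15 CPM in FR and 1.87 to 2.10 CPM in WT, mostly from Des, and Myod1 was at 0. The 4 neuronal markers held 23.8 to 26.5 CPM in FR and 40.7 to 42.6 CPM in WT, with Rbfox3 at 0. Most came from Syn1, at 12.6 CPM in FR and 23.5 CPM in WT, and Tubb3, at 12.4 CPM in FR and 18.1 CPM in WT. The endothelial and epithelial lists stayed under 1.2 CPM, and the adipocyte list under 0.2 CPM, in every library. The part of these marker differences in the results below was not tested.

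Comparing FR with WT asked which of these genes differ between resistant cells exposed to fluoride and wild-type control cells. With edgeR's quasi-likelihood test and an adjusted p under 0.05, 13 of the 35 members were higher in FR, 12 were lower and 10 did not pass. Among all tested genes 34.6% were higher and 35.5% lower, 70.1% in either direction. The members' shares, 37.1% higher, 34.3% lower and 71.4% in all, lie near that background, so the count itself is not a result about these genes. Their median log2 fold change was 0.04, against 0.00 for all tested genes. Falls of at least 2-fold were made by 5 of the 35 members, namely Pdk4, Pdk3, Pdha1, Pfkp and Gapdh, where 11.4% of all tested genes fell so far. With its sequence copies added, as described below, Gapdh fell 1.31-fold, which left 4. This count too lies near the background and is not a result about these genes. No member rose 2-fold, where 7.40% of all tested genes did. In bulk samples fewer cells that express a gene and less RNA per cell cannot be told apart.

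**Figure D1:**
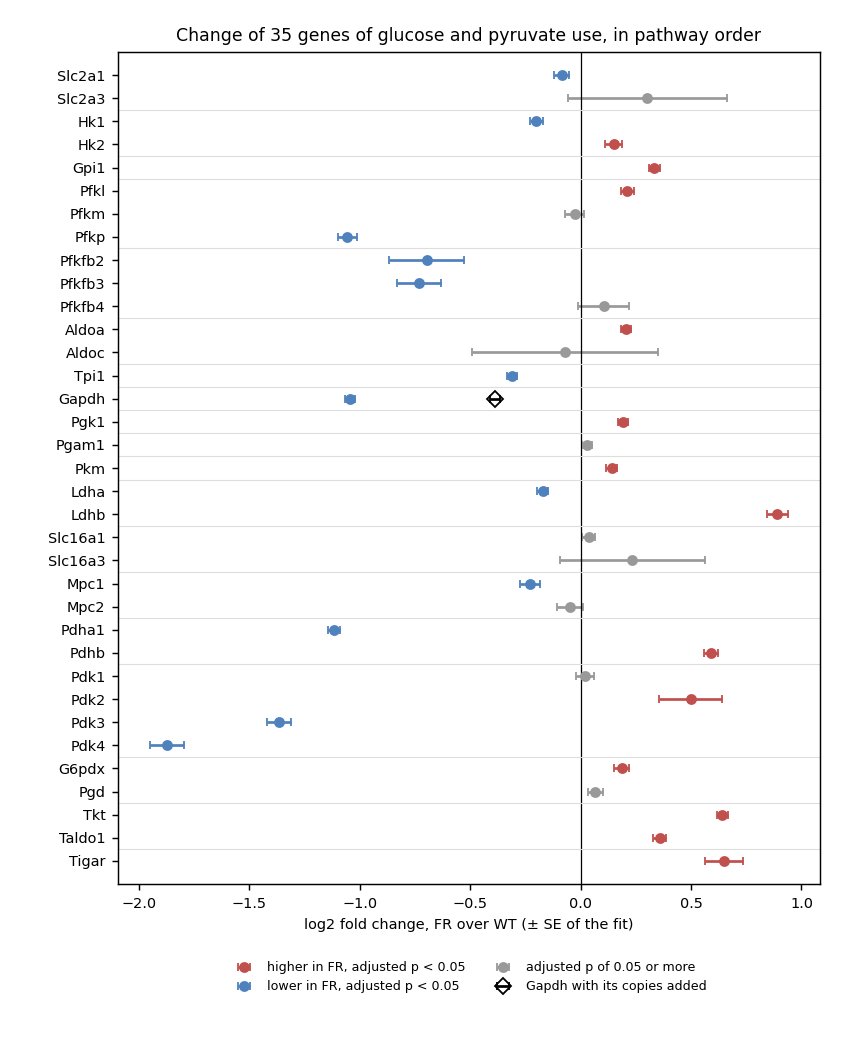
Log2 fold change, FR over WT, of the 35 members in pathway order, with the standard error derived from the edgeR test as bars (n = 3 libraries per group). Pdk4 lies furthest to the left at −1.87 and Ldhb furthest to the right at 0.89, and the open diamond gives Gapdh at −0.39 once the counts of its copies are added.

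The largest differences were at the gate between glycolysis and the mitochondrion. Pdha1 and Pdhb encode the alpha and beta subunits of pyruvate dehydrogenase E1, the enzyme that decarboxylates pyruvate, and they moved in opposite directions. Pdha1 (ENSMUSG00000031299) had 136, 141 and 143 CPM in the FR libraries, against 308, 301 and 302 CPM in the WT libraries. Every FR library lay more than 2-fold below every WT library. This is a log2 fold change of −1.12 ± 0.03 (SE; edgeR adjusted p = 1.37e-23). Pdhb (ENSMUSG00000021748) had 189, 191 and 177 CPM in FR, against 121, 124 and 125 CPM in WT. All FR libraries were higher, with a log2 fold change of 0.59 ± 0.03 (edgeR adjusted p = 1.13e-15). The subunits assemble in equal numbers, and the transcript ratio of Pdha1 over Pdhb, each as CPM per kilobase of the deposited gene length, was 0.402 ± 0.0260 in FR and 1.31 ± 0.0394 in WT (SD, n = 3 each). The groups did not overlap, and the exact two-sided permutation test gave p = 0.1, the smallest that 3 against 3 libraries allow. The pyruvate carrier of the inner mitochondrial membrane is built from the products of Mpc1 and Mpc2. Mpc1 was at 50.8 ± 2.65 CPM in FR and 59.5 ± 0.929 CPM in WT (SD, n = 3 each), and fell by 0.23 on the log2 scale (SE 0.04, edgeR adjusted p = 3.58e-05). Mpc2, at 29.8 ± 2.33 CPM in FR and 30.9 ± 0.969 CPM in WT, did not pass (log2 fold change −0.05, 95% interval −0.17 to 0.07).

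The PDK kinases, which phosphorylate and inactivate pyruvate dehydrogenase, differed among themselves. Pdk4 (ENSMUSG00000019577), an isoform known for induction by fasting and fatty acids, had 11.0, 11.1 and 8.31 CPM in FR, against 36.9, 37.7 and 36.9 CPM in WT. The third FR library was lowest and the groups stood far apart, at 3.66-fold lower in FR (log2 fold change −1.87 ± 0.08 SE, edgeR adjusted p = 2.88e-17). Pdk3 (ENSMUSG00000035232) had 19.4, 19.0 and 20.2 CPM in FR and 50.6, 48.2 and 52.0 CPM in WT. It was 2.58-fold lower in FR, with tight values within each group (log2 fold change −1.36 ± 0.05 SE, edgeR adjusted p = 5.22e-19). Pdk2 was low but higher in FR, with 5.45, 5.83 and 5.43 CPM in FR against 4.43, 4.04 and 3.36 CPM in WT (log2 fold change 0.50 ± 0.14 SE, edgeR adjusted p = 0.00286). Pdk1, an isoform known as a hypoxia target, was at 66.0 ± 2.01 CPM in FR and 65.2 ± 2.90 CPM in WT (SD, n = 3 each). Its difference did not pass, with a 95% interval of −0.06 to 0.10 on the log2 scale. The summed level of the 4 kinases was 27.3 ± 0.599 CPM per kilobase in FR and 48.7 ± 0.385 in WT (SD, n = 3 each; exact permutation p = 0.1, the smallest possible). Within that sum Pdk1 made up 46.5 ± 0.491% in FR and 25.8 ± 1.18% in WT, and Pdk3 33.8 ± 1.79% in FR and 48.7 ± 1.61% in WT, so that per length Pdk1 led on average in FR and Pdk3 in WT. This order rests on the deposited lengths, since in CPM alone Pdk1 was the highest of the 4 in both groups.

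**Figure D2:**
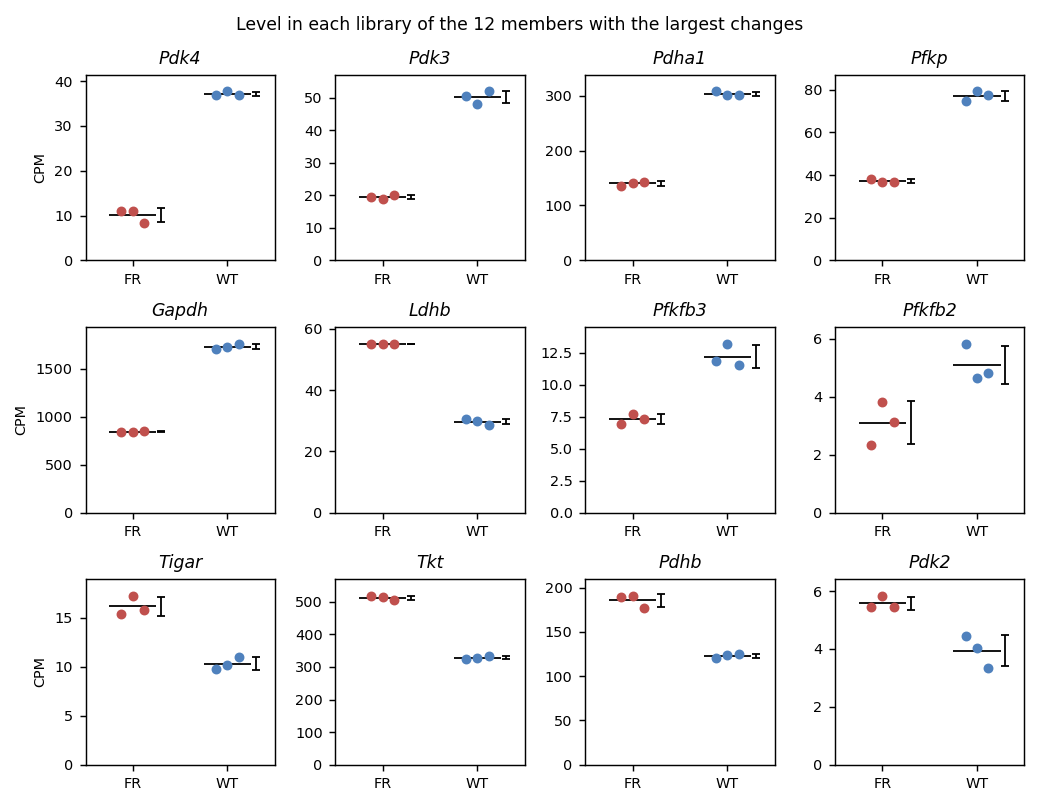
CPM in each library (points), with the group mean (line) and SD (bar beside it), of the 12 members with the largest absolute log2 fold change among those that passed the test, FR on the left and WT on the right of each panel. The panels were chosen by size of change, so that the groups stand apart in them is not a result. Pfkfb2 shows the widest spread for its level, at 3.09 ± 0.744 CPM in FR and 5.09 ± 0.644 CPM in WT.

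At the entry of the pathway the changes were small. Slc2a1, which encodes the GLUT1 transporter, had 123, 130 and 123 CPM in FR and 130, 133 and 136 CPM in WT. The values nearly touch, and the fall (log2 fold change −0.09 ± 0.03 SE, edgeR adjusted p = 0.0211) ended as a call with DESeq2 (adjusted p = 0.0527) and without the first FR library (edgeR adjusted p = 0.0510), the third FR library (0.0769) or the third WT library (0.0788). Slc2a3, the GLUT3 gene, was at 0.771 ± 0.165 CPM in FR and 0.623 ± 0.0975 CPM in WT and did not pass. Hk1, the broadly expressed hexokinase, had 187, 192 and 182 CPM in FR and 208, 214 and 224 CPM in WT (log2 fold change −0.20 ± 0.03 SE, edgeR adjusted p = 1.79e-06). Hk2, an inducible hexokinase, moved the other way, at 85.5 ± 2.90 CPM in FR and 77.1 ± 2.75 CPM in WT (SD, n = 3 each; log2 fold change 0.15 ± 0.04 SE, edgeR adjusted p = 0.000926). Per length, Hk1 held 75.8 ± 0.234% of the pair in FR and 80.0 ± 0.521% in WT. Gpi1, whose enzyme turns glucose 6-phosphate into fructose 6-phosphate, had 492, 506 and 500 CPM in FR and 392, 393 and 403 CPM in WT, higher in every FR library (log2 fold change 0.33 ± 0.02 SE, edgeR adjusted p = 9.58e-13).

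The phosphofructokinase step changed its composition. Pfkp (ENSMUSG00000021196), the platelet-type gene, had 38.3, 36.6 and 36.5 CPM in FR, against 74.7, 79.2 and 77.5 CPM in WT. It was 2.08-fold lower in FR (log2 fold change −1.06 ± 0.04 SE, edgeR adjusted p = 7.89e-19). Pfkl, the liver-type gene and the most abundant of the 3 per length, had 185, 186 and 188 CPM in FR and 155, 162 and 166 CPM in WT (log2 fold change 0.21 ± 0.03 SE, edgeR adjusted p = 4.12e-07). Pfkm, the muscle-type gene, overlapped between the groups at 48.1 ± 1.49 CPM in FR and 49.1 ± 0.509 CPM in WT (95% interval −0.11 to 0.06 on the log2 scale). Pfkl held 61.8 ± 0.674% of the 3 genes' CPM per kilobase in FR and 48.3 ± 0.511% in WT, and Pfkp 17.1 ± 0.461% in FR and 32.2 ± 0.435% in WT. Their sum was 80.9 ± 0.287 CPM per kilobase in FR and 89.4 ± 2.31 in WT (SD, n = 3 each; exact permutation p = 0.1, the smallest possible). This is a log2 difference of −0.14, which was −0.08 without scaling to length.

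PFKFB enzymes make or remove fructose 2,6-bisphosphate, a potent activator of phosphofructokinase, and their transcripts were scarce. Pfkfb3, whose enzyme strongly favours synthesis, had 6.91, 7.71 and 7.32 CPM in FR, against 11.8, 13.2 and 11.5 CPM in WT. The FR libraries were all lower, with a log2 fold change of −0.73 ± 0.10 SE (edgeR adjusted p = 2.43e-07). Pfkfb2 had 2.34, 3.82 and 3.12 CPM in FR and 5.83, 4.64 and 4.81 CPM in WT (log2 fold change −0.70 ± 0.17 SE, edgeR adjusted p = 0.000598). The row Gm29427 has the same deposited protein match, and with its counts added Pfkfb2 was 18.1 ± 1.85 CPM in FR and 27.0 ± 2.47 CPM in WT (log2 fold change −0.57 ± 0.08 SE, edgeR adjusted p = 1.13e-06). Pfkfb4 did not pass, at 7.33 ± 0.443 CPM in FR and 6.82 ± 0.461 CPM in WT. Tigar, whose product lowers fructose 2,6-bisphosphate and was described as a p53 target, had 15.4, 17.2 and 15.8 CPM in FR, against 9.75, 10.2 and 11.0 CPM in WT. It was higher in all FR libraries (log2 fold change 0.65 ± 0.09 SE, edgeR adjusted p = 1.45e-07).

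**Figure D3:**
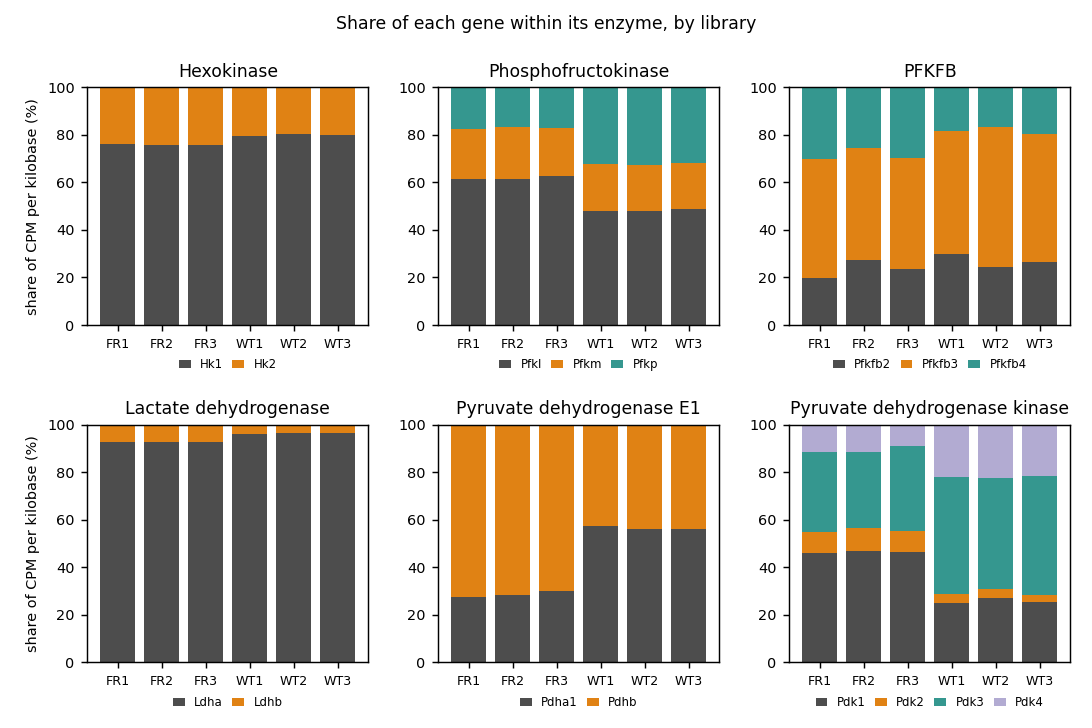
Share in percent of each gene in the summed CPM per kilobase of its enzyme or enzyme family, 1 stacked bar per library, FR libraries on the left. Pdha1 takes 28.6% of the E1 pair on average in FR and 56.7% in WT, Pfkp 17.1% of phosphofructokinase in FR and 32.2% in WT, and Pdk4 10.6% of the kinases in FR and 21.9% in WT. The PFKFB panel leaves out Gm29427, whose row holds more counts than Pfkfb2.

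The later steps of glycolysis hold the most abundant members, and outside Gapdh their differences were small. Aldoa, the main aldolase, had 1011, 1018 and 1009 CPM in FR and 862, 880 and 891 CPM in WT (log2 fold change 0.21 ± 0.02 SE, edgeR adjusted p = 4.52e-09). Aldoc was near 0.6 CPM in both groups and was not distinguishable at this depth. Tpi1, which interconverts the triose phosphates, had 627, 627 and 616 CPM in FR and 765, 762 and 791 CPM in WT, lower in every FR library (log2 fold change −0.31 ± 0.02 SE, edgeR adjusted p = 2.79e-12). Pgk1, whose enzyme makes the first ATP of the pathway, had 1163, 1189 and 1173 CPM in FR and 1004, 1024 and 1058 CPM in WT (log2 fold change 0.19 ± 0.02 SE, edgeR adjusted p = 4.07e-08). Its direction was opposite to that of Tpi1. Pgam1, the mutase before enolase, had 833, 841 and 811 CPM in FR and 797, 817 and 820 CPM in WT, values that overlap (95% interval −0.02 to 0.08 on the log2 scale). Pkm, the pyruvate kinase gene and the most abundant member in CPM in every library, had 2957, 3114 and 3004 CPM in FR and 2692, 2708 and 2833 CPM in WT (log2 fold change 0.14 ± 0.02 SE, edgeR adjusted p = 9.73e-06). The table does not separate the M1 and M2 forms of Pkm.

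Gapdh (ENSMUSG00000057666), whose enzyme oxidises glyceraldehyde 3-phosphate, had by far the largest difference of this stretch in the deposited row. It was listed at 835, 840 and 846 CPM in FR, against 1702, 1729 and 1760 CPM in WT, a 2.06-fold fall (log2 fold change −1.04 ± 0.02 SE, edgeR adjusted p = 2.65e-25). This row held only 32.2% to 33.0% of all counts given to Gapdh and its copies in FR, and 51.4% to 51.7% in WT. The copies were 134 rows with counts whose deposited protein match is Gapdh; the 4 named here are processed pseudogenes in GENCODE M21. Gm13394 on chromosome 2 had 867, 887 and 900 CPM in FR, against 559, 571 and 581 CPM in WT, the opposite direction to Gapdh (log2 fold change 0.63 ± 0.02 SE, edgeR adjusted p = 2.54e-19). Gm7336 on chromosome 7 was at 749 ± 20.4 CPM in FR and 753 ± 22.0 CPM in WT (SD, n = 3 each) and did not pass. Gm12671 on chromosome 4 fell to 31.9 ± 3.16 CPM in FR, against 127 ± 6.08 CPM in WT (SD, n = 3 each; log2 fold change −1.99 ± 0.06 SE). Gm10359 on chromosome 5 fell to 33.1 ± 6.40 CPM in FR, against 128 ± 5.18 CPM in WT (log2 fold change −1.94 ± 0.14 SE). Adding all copies to Gapdh gave 2529, 2567 and 2623 CPM in FR, against 3294, 3364 and 3426 CPM in WT. The sum was still lower in every FR library, but by 1.31-fold (log2 fold change −0.39 ± 0.02 SE, edgeR adjusted p = 2.83e-15). Adding copies was chosen after seeing the data.

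How alike these rows are is seen in their sequence. In GENCODE M21 transcripts (GRCm38, another build than the authors' GRCm39), Gm12671 and Gm10359 are identical to the Gapdh transcript of 1273 bases over all 1002 of their bases. Gm7336 had no mismatch in 1198 aligned bases with 1 gap, and Gm13394 had 1 mismatch in 1000. The stretch below, bases 394 to 453 of the longest open reading frame of that transcript, is the one around this mismatch, 5′ to 3′ on the transcribed strand, with the differing base in capitals. It is shown because it holds the only base by which a read of the aligned part could tell Gm13394 from Gapdh.
Gapdh: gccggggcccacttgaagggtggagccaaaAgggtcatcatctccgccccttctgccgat
Gm13394: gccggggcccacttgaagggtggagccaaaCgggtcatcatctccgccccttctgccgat
Reads from the shared sequence were therefore divided among rows by the estimation of RSEM, and the level of any single row of this group is uncertain.

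**Figure D4:**
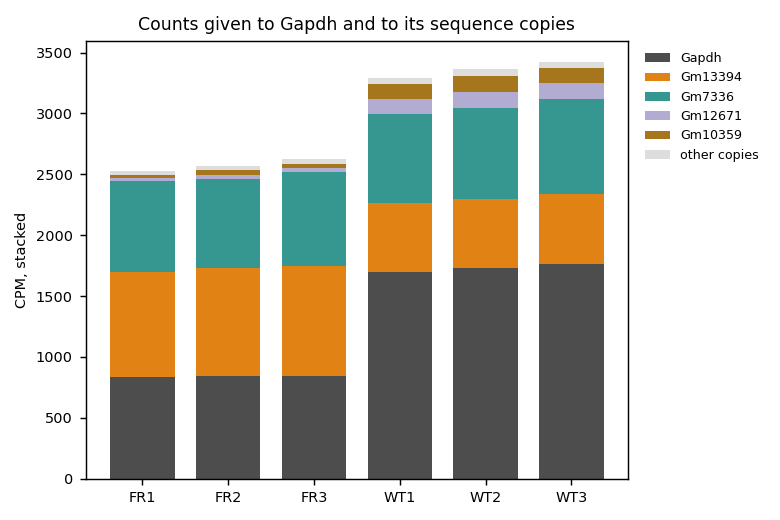
CPM given to Gapdh and to its sequence copies, stacked, 1 bar per library, FR libraries on the left. The full bars reach 2529 to 2623 CPM in FR and 3294 to 3426 CPM in WT, and the dark part at the base is the Gapdh row alone, at 835 to 846 CPM in FR and 1702 to 1760 CPM in WT.

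Pyruvate to lactate showed a shift between subunits. Lactate dehydrogenase is a tetramer of A subunits, which favour lactate formation, and B subunits, which favour its oxidation. Ldhb (ENSMUSG00000030246) had 55.0, 55.0 and 55.2 CPM in FR, against 30.4, 29.9 and 28.8 CPM in WT. It was the member with the largest rise, 1.85-fold, and the FR libraries were almost equal (log2 fold change 0.89 ± 0.05 SE, edgeR adjusted p = 3.51e-16). Ldha, far more abundant, had 969, 998 and 961 CPM in FR and 1069, 1103 and 1126 CPM in WT (log2 fold change −0.17 ± 0.02 SE, edgeR adjusted p = 4.55e-07). Per length the ratio of Ldha over Ldhb was 12.7 ± 0.272 in FR and 26.6 ± 1.44 in WT (SD, n = 3 each; exact permutation p = 0.1, the smallest possible). Ldha still held 92.7 ± 0.143% of the pair in FR and 96.4 ± 0.189% in WT. The lactate transporter gene Slc16a1 (MCT1) had 179, 179 and 179 CPM in FR and 175, 173 and 177 CPM in WT and did not pass (95% interval −0.02 to 0.09 on the log2 scale). Slc16a3 (MCT4) was at 0.961 ± 0.0615 CPM in FR and 0.827 ± 0.222 CPM in WT, too low to distinguish (95% interval −0.41 to 0.87).

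The pentose phosphate members that passed, Tkt, Taldo1 and G6pdx, were higher in FR, as were 34.6% of all tested genes. The pathway's other genes moved in both directions, between −0.97 and 0.95 on the log2 scale. Of 8 tested, 3 were higher and 4 lower, with a median log2 fold change of −0.30. Tkt (ENSMUSG00000021957), transketolase of the non-oxidative branch, had 518, 513 and 506 CPM in FR, against 323, 328 and 334 CPM in WT (log2 fold change 0.64 ± 0.03 SE, edgeR adjusted p = 3.17e-19). Taldo1, transaldolase of the same branch, was at 210 ± 1.24 CPM in FR and 164 ± 3.69 CPM in WT (SD, n = 3 each; log2 fold change 0.36 ± 0.03 SE, edgeR adjusted p = 5.41e-12). Differences in the oxidative branch, which makes NADPH, were smaller in size. G6pdx, the gene of its first and rate-limiting enzyme, was at 142 ± 4.95 CPM in FR and 125 ± 4.69 CPM in WT (SD, n = 3 each; log2 fold change 0.19 ± 0.03 SE, edgeR adjusted p = 2.15e-05). Pgd, the second NADPH-making enzyme, had 133, 139 and 131 CPM in FR and 124, 131 and 129 CPM in WT, values that overlap slightly (log2 fold change 0.07 ± 0.03 SE, edgeR adjusted p = 0.0739).

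Scaled per kilobase, Pkm was the most abundant member in FR at 1482 CPM per kilobase, followed by Gapdh (660), Aldoa (654), Pgk1 (644) and Ldha (538). In WT the Gapdh row (1359) and Pkm (1345) led with ranges that overlap, followed by Ldha (606), Aldoa (566) and Pgk1 (564), of which the last 2 also overlap. In FR the ranges of Gapdh and Aldoa overlapped, Pgk1 lay just below Aldoa, and Ldha was apart from both its neighbours. The place of Gapdh in either order rests on how its reads were shared with the copies.

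Beyond the members, 89 of 91 listed genes of the same pathways and their regulators were found in the table and 66 could be tested. Of these 26 were higher in FR, 28 lower and 12 did not pass (39.4% and 42.4%, against 34.6% and 35.5% of all tested genes), with a median log2 fold change of −0.06. With copies added to Eno1, described below, 27 were higher and 27 lower. Of 8 tested other genes of glycolysis and gluconeogenesis, 1 was higher and 6 lower, or 2 and 5 with the Eno1 copies added. Of 19 genes of hexose entry and glycogen, 6 were higher and 7 lower, and of 15 regulators, 7 were higher and 6 lower. Of the 13 other genes of the pyruvate dehydrogenase complex and the entry to the TCA cycle, 6 were higher and 5 lower, and of 8 tested other pentose phosphate genes, 3 were higher and 4 lower. The 3 tested genes for lactate handling were all higher, as were 34.6% of all tested genes, with log2 fold changes between 0.24 and 0.99. Among them were the MCT chaperone genes Bsg and Emb (log2 fold changes 0.24 ± 0.02 and 0.69 ± 0.07 SE). Pcx, whose enzyme carboxylates pyruvate to oxaloacetate, had 39.4, 38.6 and 40.0 CPM in FR, against 118, 118 and 126 CPM in WT (log2 fold change −1.62 ± 0.04 SE, edgeR adjusted p = 4.15e-24). It was lower in FR by 3.07-fold. Ppargc1a, a coactivator of mitochondrial genes, was at 26.6 ± 1.63 CPM in FR and 6.31 ± 0.257 CPM in WT (log2 fold change 2.07 ± 0.08 SE, edgeR adjusted p = 8.7e-19), and Myc, a transcription factor that drives glycolytic genes, at 141 ± 3.07 CPM in FR and 78.9 ± 2.20 CPM in WT (SD, n = 3 each; log2 fold change 0.83 ± 0.03 SE, edgeR adjusted p = 9.42e-19). Prps2, which makes phosphoribosyl pyrophosphate from ribose phosphate, fell (log2 fold change −0.87 ± 0.04 SE, edgeR adjusted p = 7.56e-17), as did Ugp2, which makes UDP-glucose (−0.73 ± 0.04 SE, edgeR adjusted p = 2.63e-15). The enolase row Eno1 was at 576 ± 16.3 CPM in FR and 931 ± 23.9 CPM in WT, but its direction turned when rows with an Eno1 protein match, led by Eno1b, were added (1951 ± 25.9 CPM in FR and 1577 ± 38.6 CPM in WT; log2 fold change 0.31 ± 0.02 SE). No direction is given for it here.

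Promoter windows from RefSeq (GRCm38.p6), cut to the 250 bases before each start, were found for 34 of the 35 members, 50 windows in all. Searched on both strands, the letters ACGTG, the core of the hypoxia response element, stood in a window of 15 members (44.1%), against 18.5% of all genes with a window. Of all windows, 38.0% of the members' and 16.6% of the whole set held them, with a median GC content of 60.8% and 52.4%. They stood in a window of 6 of 13 members that were higher, 5 of 12 that were lower and 4 of 9 that did not pass. CACGTG, the E-box, which holds ACGTG on both strands, stood in windows of 6 members (17.6%, against 6.86% of genes), and TGACNNNGC, the core of the antioxidant response element, in windows of 5 (14.7%, against 11.5%). Windows of 3 members that hold ACGTG are printed 5′ to 3′ on the gene's strand, with matches of the motifs in capitals. They were chosen with their values known, to show that such letters occur beside a small fall (Ldha, chr7:46845554-46845803, plus strand), a small rise (Pgk1, chrX:106186850-106187099, plus strand) and a large fall (Pdk3, chrX:93832151-93832400, minus strand).
Ldha: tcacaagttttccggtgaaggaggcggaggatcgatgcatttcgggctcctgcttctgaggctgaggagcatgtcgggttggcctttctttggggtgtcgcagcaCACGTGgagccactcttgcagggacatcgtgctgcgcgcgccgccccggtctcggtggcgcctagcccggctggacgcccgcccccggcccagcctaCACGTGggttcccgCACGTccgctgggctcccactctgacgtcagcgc
Pgk1: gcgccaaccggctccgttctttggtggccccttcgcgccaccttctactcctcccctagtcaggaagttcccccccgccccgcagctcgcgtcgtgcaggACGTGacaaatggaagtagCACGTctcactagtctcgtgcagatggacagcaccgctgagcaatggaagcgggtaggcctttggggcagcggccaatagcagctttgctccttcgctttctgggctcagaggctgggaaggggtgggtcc
Pdk3: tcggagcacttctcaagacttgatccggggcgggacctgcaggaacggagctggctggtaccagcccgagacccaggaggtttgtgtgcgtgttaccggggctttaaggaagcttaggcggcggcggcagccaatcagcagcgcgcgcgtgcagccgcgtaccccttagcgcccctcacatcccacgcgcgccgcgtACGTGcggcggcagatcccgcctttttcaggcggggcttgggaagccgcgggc
A match is a description of the letters and not of binding.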

How the data were processed

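Poly(A)-selected RNA of 3 FR and 3 WT libraries was sequenced, per the labels' protocols. Expected counts, 1 value per gene and library with no scaling to depth, were deposited by the authors as a single table. The tools named per the submitters' processing notes are fastp, HISAT and RSEM, the build is GRCm39, and versions, settings, strand and annotation release are not given in the sources used here. RSEM divides reads that match several genes by estimation, which bears on members with near-identical copies. The table also gives a gene length of unstated origin, used for levels per kilobase, and group means that were not used.

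Expected counts were rounded, filtered with filterByExpr, scaled with TMM and tested in edgeR 4.0.16 (quasi-likelihood F-test, robust fit) in R 4.3.3, FR over WT, with Benjamini-Hochberg adjustment over all 14889 tested genes and a threshold of 0.05. Standard errors were derived from the edgeR test, as the absolute log2 fold change divided by the square root of the F statistic. The 95% intervals use these and the normal quantile. Step sums, shares and ratios were compared by exact permutation tests (scipy 1.17.1). A chi-square per degree of freedom of 2.34 to 3.37 between libraries within a group means that no library's counts are a copy of another's. It does not tell separate cultures from repeat libraries of the same culture. The fit was first tested on simulated data. There it called 0.105% of unchanged genes, 54.2% of genes changed 1.2-fold and 77.6% of genes changed 2-fold.

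The members and lists were chosen with earlier results of these data known. Values by library are given for the 12 members with the largest absolute log2 fold change. These were taken from members that passed with a mean of at least 1 CPM. For the highest member per length of each step, values are given by library or as mean and SD. The 6 other genes with the smallest adjusted p and a mean of at least 5 CPM are named. Of these, Prps2 and Ugp2 have the fold change only. Bsg and Emb were named after their values were seen. Alternatives were median-of-ratios factors, library size alone, the 10 most abundant genes left out, no filter, a minimum mean of 1 CPM, the fit made without its robust option, DESeq2 1.42.0, limma-voom (limma 3.58.1), glmTreat at 1.2-fold, the replicate block, each library left out, no length scaling, and copies added to their gene. Figures were drawn with matplotlib 3.10.9.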

Additional observations from a re-analysis of the deposited data

How the results depend on the processing

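Fold changes of members were recomputed in the alternatives that refit the genes, other than glmTreat. Copies added were among them (chosen after seeing the data). Of the recomputed fold changes, 547 of 557 kept their direction and side of the threshold. Another 4, all of Slc2a1, kept the direction and lost the call, as given above. The other 6 changed sign and belong to members that did not pass in any of these fits. Pdk1 was at −0.0044 with no filter on low counts. The remaining sign changes came with 1 library left out. Over all the recomputed fits, Pdk1 ranged between −0.0243 and 0.0388, Mpc2 between −0.109 and 0.0084, and Aldoc between −0.51 and 0.30. Testing against a minimum fold of 1.2 with glmTreat, which asks for a larger change by construction, left 6376 genes called in place of 10440, 7 members higher in place of 13 and 8 lower in place of 12, and 13 other pathway genes higher in place of 26 and 20 lower in place of 28. The members' median log2 fold change of 0.04 was 0.0129 with no filter on low counts and 0.0265 to 0.0419 with 1 library left out. With 1 library left out, 13 members were higher, 11 to 12 lower and 5 at least 2-fold lower, with 9968 to 10221 genes called, and 23 to 25 other pathway genes higher and 26 to 28 lower. With copies added, Gapdh was no longer 2-fold lower, which left 4 such members, and Eno1 reversed to a log2 fold change of 0.31. Replicate numbers gave no sign of pairing the libraries. After each gene's group mean was subtracted from its log2 CPM, same-numbered FR and WT libraries had correlations of −0.0166, −0.0039 and −0.0280. Those with different numbers had correlations of −0.02 to 0.0368. With the replicate block 10292 genes were called, the median was 0.04, and the same 25 members passed. Levels per length depend on the single length given per gene. Without length scaling, the summed level of the PDK kinases was −0.63 in place of −0.83 on the log2 scale, that of the phosphofructokinases −0.08 in place of −0.14, and that of the E1 pair −0.39 in place of −0.13, and no share changed direction. Members under 1 CPM (Slc2a3, Aldoc and Slc16a3) are limited by depth.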
